A study of Rattus norvegicus with 4 samples.

Results

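Serpins, cystatins and complement proteins were followed as 1 group of 53 genes in cultured rat ovaries (Rattus norvegicus), out of 14217 genes that the array annotation names singly. A gene was included when its symbol began with Serpin, Stfa or Cst followed by a digit or a letter from a to e, or was that of A2m, of C1r or C1s, of a complement component from C2 to C9 (with C4a and C4b) or of complement factor B, D, H or I. Serpinh1, a collagen chaperone, was left out. The 53 genes had 58 probe sets, and each gene is described by its brightest probe set (mean of the 4 arrays). They comprise 32 serpins, 12 cystatins, 8 complement genes and A2m (alpha-2-macroglobulin).

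The ovaries were taken from untreated female pups on postnatal day 4 and kept as whole organs on floating filters for 10 days. Control ovaries received no AMH, and the other group received AMH (anti-Müllerian hormone) at 50 ng/mL. Both groups shared the same serum-free medium with albumin, transferrin, insulin and ascorbic acid. RNA came from pools of about 10 ovaries each, with 2 independent pools per group and 1 Affymetrix array per pool, 4 arrays in all. The labels used here name no strain. Values are probe set intensities as the authors deposited them, and every change is the AMH mean less the control mean of log2(intensity + 16), given ± its standard error from limma (n = 2 arrays per group).

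Serpins are proteins that mostly inhibit serine proteases: the target cuts an exposed loop of the serpin, which then traps it in an inactive complex. Cystatins block cysteine proteases of the papain type, chiefly the lysosomal cathepsins, by filling the active site cleft. Complement is a cascade of plasma proteases and binding proteins in which C1r and C1s start the classical branch and C3 is the component on which the branches meet, while alpha-2-macroglobulin traps proteases of every class inside a cage. In the ovary, protease inhibitors are known for their part in matrix remodelling around growing follicles and at ovulation.

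Arrays of the same group resembled each other more than arrays of different groups, with correlations over tested probe sets of 0.974 within control and 0.955 within AMH against 0.877 to 0.902 between groups. GAPDH, which the array measures at both ends of the transcript to show shortened RNA, was 1.17 and 1.27 times as bright at its 3′ as at its 5′ end in control, but 6.56 and 6.37 times in AMH samples. For beta-actin the same ratio was 3.17 and 4.60 in control and 10.7 and 14.4 with AMH. The part of this difference in the results that follow was not tested. The chip names also hold a string that differs between control and AMH arrays (2 strings, 0 shared by the groups). What it stands for is not known here, so anything it marks cannot be told apart from treatment. Oocyte and granulosa markers were present as the label requires: all 8 measured oocyte markers and all 14 measured granulosa markers were bright enough to be tested. Of the oocyte markers 5 were lower with AMH and 0 higher, with a median of -1.05. Among them, Gdf9, an oocyte growth factor, was at -2.14 and Bmp15 at -1.93. The size for Bmp15 depends on the constant added, with -2.35 for 4 and -1.17 for 64. Kit, also among the 5, was only narrowly bright enough to be tested. With 4 added it dropped out, leaving 4 lower of 7. Of 11 tested markers of stroma, theca and smooth muscle 4 were lower and 1 higher (median -0.03, range -3.00 to 1.01). The lowest was Col1a1, whose dimmer probe set gave -0.54 ± 0.23. Col1a2, also among the 4, gave -1.27 ± 0.29 and, at its dimmer probe set, -0.46 ± 0.28. Neither dimmer probe set was called. Over all tested genes 11.9% were lower and 11.1% higher. The part of any of these cell types in the falls of Cstb and Cst3 was not tested. In pooled whole organs, fewer cells of a type and less RNA per cell cannot be told apart.

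Of the 53 genes, 20 were bright enough to be tested and 33 were not, the filter being a mean level of about 27.8. Among the 20, 4 rose with AMH, 2 fell and 14 did not pass an adjusted p of 0.05 (limma, Benjamini-Hochberg over all tested probe sets). The 4 that rose were the cystatin gene Stfa2l2, the serpin gene Serpinb2, the complement protease gene C1s and A2m, and the 2 that fell were the cystatin genes Cstb and Cst3. Each of these called genes had a single probe set, so none of the calls could be compared with another probe set of its gene. Over all 10621 tested genes 23% were called, 11.1% higher and 11.9% lower, so that 6 of 20 (30%) lies close to the background. Stfa2l2 passed the filter only through its AMH arrays, so it could enter the test only by being high there. The median change of the 20 was 0.13, and that of all tested genes was 0.07. With the arrays scaled to the hybridization controls instead, 2 of the 20 were higher and 4 lower, with a median of -0.30, against 94 higher and 2599 lower and a median of -0.35 over all genes. Over all genes the split of 1175 higher and 1269 lower became 1425 and 960 with median centring.

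**Figure D1:**
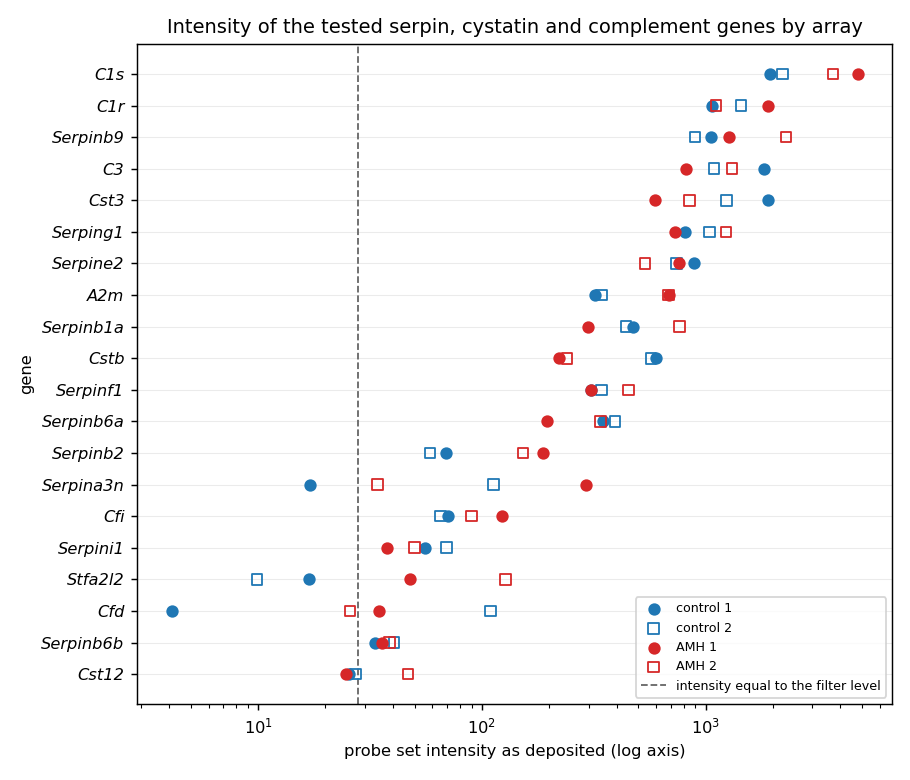
Deposited intensity (log axis) of the 20 tested genes on each array, with control in blue, AMH in red, replicate 1 as a filled circle and replicate 2 as an open square; the dashed line marks the filter level of 27.8. C1s, A2m and Serpinb2 lie to the right of both control arrays on both AMH arrays, and Cst3 and Cstb to the left.

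Groups separated for 10 of the 20 genes, with both AMH arrays above both control arrays for 6 and below for 4. Over all tested genes the shares were 36% above and 28.6% below. The AMH arrays lay further apart than the control arrays for 15 of the 20 (75%), compared with 62.8% of all tested genes. The median distance between the AMH arrays was 0.52 on the log2 scale for the 20 genes and 0.25 for all tested genes, and that between the control arrays was 0.21 and 0.16. Several members below therefore have widely spaced AMH values.

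**Figure D2:**
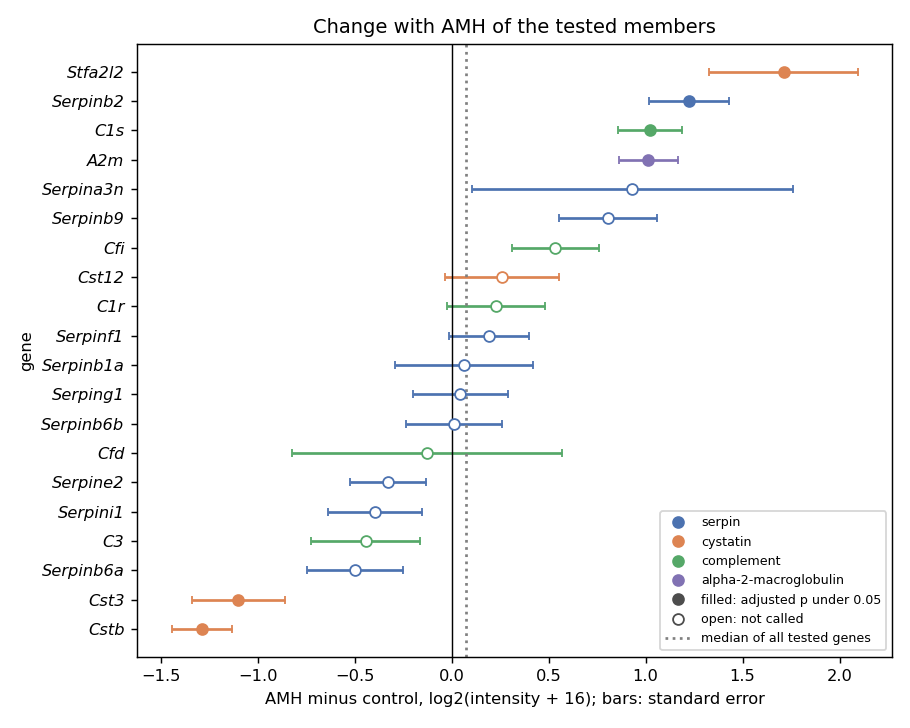
Change with AMH on the log2(intensity + 16) scale for the 20 tested genes, with bars for the standard error (n = 2 arrays per group), colours for the class and filled points for an adjusted p under 0.05. The called genes run from Cstb at -1.29 to Stfa2l2 at 1.71, and the dotted line is the median of all tested genes at 0.07.

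Of the 4 tested cystatin genes 3 were called, 2 falling and 1 rising, where 23% of all tested genes were called. Cstb encodes cystatin B, a cytosolic inhibitor of cathepsins that escape from lysosomes. Its intensity was 601.1 and 569.7 in control and 220.5 and 240.2 with AMH. Both AMH arrays were far below both control arrays, and arrays of a group lay close together. The fall was 1.29 ± 0.16 on the log2 scale (2.44-fold, adjusted p = 0.00168), and it passed in all 14 alternatives.

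Cst3 encodes cystatin C, the main secreted cystatin of most tissues. It measured 1907.3 and 1239.1 in control and 593.1 and 846 with AMH. The groups did not overlap, but the control arrays differed by 0.62 on the log2 scale. The fall was 1.10 ± 0.24 (2.14-fold, adjusted p = 0.0151). Without control replicate 1, the brighter control array, it came to -0.79 and was not called (adjusted p = 0.0913, with 0.00172 to 0.0913 over all 14 alternatives).

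Stfa2l2 encodes a stefin A-like cystatin, one of a family of closely related intracellular inhibitors that in rodents is known from neutrophils and skin. It measured 16.9 and 9.9 in control and 47.6 and 127.6 with AMH. Both control values lay below the filter level, and the AMH arrays differed widely. The rise was 1.71 ± 0.38 (adjusted p = 0.0175), and since it entered the tested set only through the AMH arrays, this p is not independent support. Without the filter the adjusted p was 0.0458, with 0.000867 to 0.0458 over 13 alternatives. Its size depends on the constant added, with 2.27 for 4 and 0.92 for 64, and it was 1.12 without AMH replicate 2 and 2.30 without AMH replicate 1. Whether its probes also bind transcripts of related stefin genes was not tested. The related gene Stfa3 stayed near the floor at both of its probe sets (1.4 to 18.5 at the brighter), although the dimmer one read 1.5 and 1.7 in control and 12.4 and 11.9 with AMH. Of granulocyte markers, S100a8 was 1.5 and 11.3 in control and 9.5 and 13.4 with AMH. S100a9 was 61.3 and 66.5 against 39.1 and 61. Among 14 measured markers 7 were too dim to test. Of the 7 tested, limma called 2 lower and 0 higher, and 0 were higher at an unadjusted p under 0.05. The 2 that fell were Lcn2, which other cells also make, and Kit, a mast cell gene that is also on the oocyte list. Kit had a mean near the filter level and dropped out of the test with 4 added, where 1 of 6 tested markers was lower. Without the filter the limma adjusted p of Kit was 0.04997. The part of granulocytes in the values of Stfa2l2 was not tested.

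The remaining tested cystatin gene, Cst12, a member of the reproductive tract cystatins, lay at the filter level with 25.4 and 27.3 in control and 24.8 and 46.8 with AMH (0.26 ± 0.29, adjusted p = 0.567). The other 8 cystatin genes were too dim to test. Cst7, cystatin F of leukocytes, measured 15.4 and 12.6 in control and 29 and 27.4 with AMH, and Cst6, cystatin E/M, measured 3.8 and 8.5 against 24.3 and 18.9. Both were higher on both AMH arrays, but neither was called when the filter was lifted (adjusted p = 0.25 and 0.117). Cst11, Cstdc1, Cst8, Cst9l, Cst5 and Stfa3 lay between 0.4 and 34.7 on all arrays.

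The promoters of 4 of the 6 called genes were in the RefSeq table (GRCr8), and they are shown because these genes carry most of the calls. Each is the 250 bases before the annotated start, 5′ to 3′ on the gene's strand, with capitals on every match, on either strand, of the AP-1, STAT, C/EBP, GC box, TATA box and CCAAT box letters spelled out after the sequences.
Cst3, chr3:156793938-156794187, minus strand: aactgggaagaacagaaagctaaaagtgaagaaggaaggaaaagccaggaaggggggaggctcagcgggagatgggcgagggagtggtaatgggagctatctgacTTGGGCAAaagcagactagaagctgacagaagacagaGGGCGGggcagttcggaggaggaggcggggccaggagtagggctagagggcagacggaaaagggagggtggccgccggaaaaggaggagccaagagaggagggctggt
Cstb, chr20:10247200-10247449, minus strand: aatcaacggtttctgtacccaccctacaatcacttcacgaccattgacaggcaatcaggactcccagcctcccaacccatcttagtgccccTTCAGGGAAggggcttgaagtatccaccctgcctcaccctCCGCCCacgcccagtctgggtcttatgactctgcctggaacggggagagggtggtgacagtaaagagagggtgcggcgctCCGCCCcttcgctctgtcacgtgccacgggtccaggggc
Serpinb2, chr13:24055771-24056020, plus strand: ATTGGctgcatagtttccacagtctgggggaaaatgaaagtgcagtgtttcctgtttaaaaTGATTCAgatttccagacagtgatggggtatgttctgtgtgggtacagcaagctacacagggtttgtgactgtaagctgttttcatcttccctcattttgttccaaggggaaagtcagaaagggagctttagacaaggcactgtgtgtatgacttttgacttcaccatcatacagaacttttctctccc
Stfa2l2, chr11:78003240-78003489, plus strand: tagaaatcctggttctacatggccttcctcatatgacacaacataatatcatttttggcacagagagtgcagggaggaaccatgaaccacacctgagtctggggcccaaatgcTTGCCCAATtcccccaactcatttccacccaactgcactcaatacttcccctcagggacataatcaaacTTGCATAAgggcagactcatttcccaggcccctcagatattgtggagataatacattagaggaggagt

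Cst3 and Cstb, which fell, had 58.8% and 60.4% G and C in this window and held 1 and 2 GC boxes. Serpinb2 and Stfa2l2, which rose, had 43.2% and 46.8% and held 0 GC boxes, where the median over 27457 promoters was 52%. The promoters of A2m and C1s, which also rose, were not available. Serpinb2 had an AP-1 match that begins 189 bases before the start and Stfa2l2 had C/EBP matches at 137 and 68 bases, the first of them overlapping the CCAAT box. None of the 4 held the TATA letters, which 13.1% of all promoters of this length hold. Among the 40 member promoters in the table, 14 held the C/EBP letters TTNNGCAA, which stand in 9.2% of all promoters of this length. The GC box GGGCGG stood in 8 of the 40 and in 32.4% of all. The STAT letters TTCNNNGAA stood in 5 and in 7.52% of all, and the AP-1 letters TGANTCA in 3 and in 6.36% of all. The TATA box, spelled TATAAA, stood in 4, and CCAAT in 12 and in 34.3% of all. These are matches of letters and not binding sites, and with 4 promoters shown they describe those genes alone.

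Of 10 tested proteases that cystatins bind, the papain-like cathepsins and legumain, 4 were higher, 1 lower and 5 not called. Their median was 0.41 beside 0.07 for all tested genes, of which 11.1% were higher and 11.9% lower. Ctsc, which activates granule serine proteases, measured 230.1 and 336.1 in control and 1349.8 and 915.5 with AMH (1.94 ± 0.24, adjusted p = 0.00166), but a dimmer probe set with 161.6 and 504.5 against 400 and 299.7 gave 0.25 ± 0.42. Ctsh, an aminopeptidase, rose by 0.94 ± 0.16 (adjusted p = 0.00579), and Ctsl, a major lysosomal endopeptidase, rose by 0.63 ± 0.15 (adjusted p = 0.0216) with 0.58 at its other probe set. Ctsk, the collagen-degrading cathepsin, passed narrowly (0.61 ± 0.18, adjusted p = 0.0486) and was not called in 10 of 14 alternatives. Ctsz fell by 1.03 ± 0.21 (adjusted p = 0.0119), and Ctsb, the best known target of cystatins B and C, gave -0.05 ± 0.16.

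These protease calls moved with the scaling and with single arrays. With hybridization control scaling 1 of the 10 was higher and 1 lower, with a median of -0.03. Without control replicate 1 the counts were 1 higher and 0 lower, and without control replicate 2 they were 2 and 0. The falls of Cstb and Cst3 passed under all 3 other scalings (hybridization controls, array medians, quantiles). That of Cst3 was lost without control replicate 1 (-0.79), where fewer genes of the whole array were called too.

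**Figure D3:**
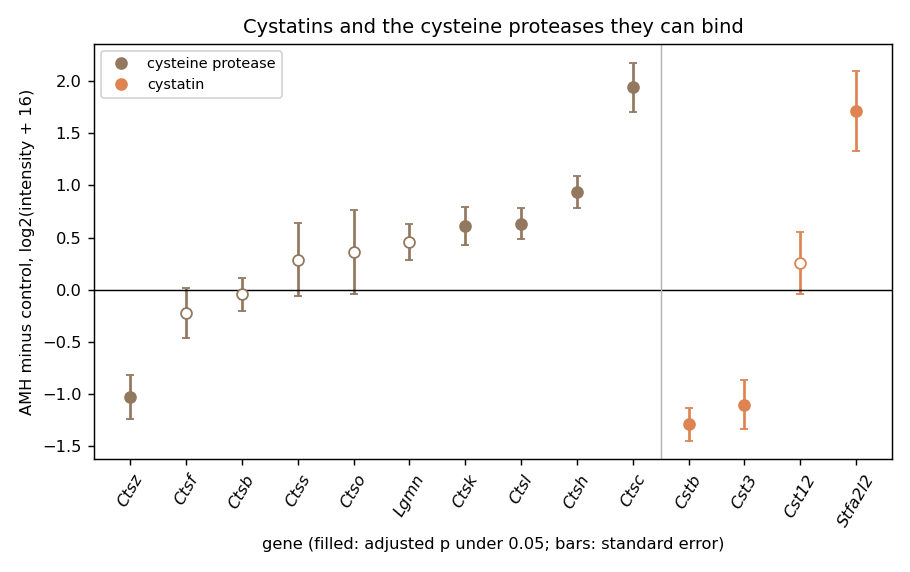
Change with AMH on the log2(intensity + 16) scale for 10 cysteine proteases (left) and the 4 tested cystatin genes (right), with bars for the standard error and filled points for an adjusted p under 0.05. Ctsc at 1.94 is the highest protease and Ctsz at -1.03 the lowest, while Cstb and Cst3 lie below -1 and Stfa2l2 at 1.71.

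A2m, the broad protease trap that in the rat is known as an acute-phase protein of liver and as a product of reproductive tissues, measured 319.7 and 342.3 in control and 687.1 and 682.1 with AMH. Arrays of a group were nearly equal, and the groups were clearly apart. The rise was 1.01 ± 0.15 (2.02-fold, adjusted p = 0.00366), with 0.97 to 1.06 when 1 array was left out. With hybridization control scaling it was 0.55 and not called (adjusted p = 0.0904, with 0.00154 to 0.0904 over 14 alternatives).

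Among the serpins 1 of 10 tested genes (10%) was called, beside 23% of all tested genes. Serpinb2 encodes plasminogen activator inhibitor 2, a mostly intracellular serpin that inhibits urokinase and tissue plasminogen activator. It measured 68.8 and 58.5 in control and 188.2 and 152.8 with AMH, without overlap. The rise was 1.22 ± 0.21 (2.34-fold, adjusted p = 0.00619), and it passed in all 14 alternatives, at 0.81 with hybridization control scaling and 0.87 with 64 added.

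Serpinb9, an inhibitor of granzyme B, read 1053.3 and 895.8 in control and 1276.7 and 2290.1 with AMH. Both AMH arrays were above control, but they lay 0.84 apart on the log2 scale. The change of 0.81 ± 0.25 missed the threshold (adjusted p = 0.0535). Without AMH replicate 1 it was 1.22 and passed (adjusted p = 0.000475, with 0.000475 to 0.767 over 14 alternatives). Its dimmer probe set read 598.3 and 618.1 against 287.5 and 605.2, the opposite way (-0.52 ± 0.29, adjusted p = 0.236).

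Serpine2, protease nexin 1, which granulosa cells make and which inhibits thrombin and plasminogen activators, measured 883.9 and 739.3 in control and 763.8 and 537.1 with AMH. The groups overlapped (-0.33 ± 0.20, adjusted p = 0.266). It passed without AMH replicate 1 (-0.58, adjusted p = 0.0245) and with hybridization control scaling (-0.80, adjusted p = 0.0288), and the adjusted p ran from 0.0245 to 0.733 over 14 alternatives. Granulosa markers, a list that holds Serpine2 itself, gave 3 higher, 0 lower and 11 not called of 14 (median 0.35). With hybridization control scaling they gave 1 higher and 1 lower of 13 (median -0.08), and 1 of the 3, Amhr2, the AMH receptor, was lost in 9 of 14 alternatives.

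Serping1, the inhibitor of C1r and C1s, gave 810.5 and 1042.9 against 728.2 and 1233.6 and hardly differed on average (0.04 ± 0.25, adjusted p = 0.92). Serpinf1, which encodes pigment epithelium-derived factor, an anti-angiogenic serpin without known protease inhibition, gave 308.1 and 342.3 against 307.6 and 453.5 (0.19 ± 0.21, adjusted p = 0.537). In both, AMH replicate 2 was the highest array and AMH replicate 1 the lowest. The 95% interval of the change ran from -0.52 to 0.61 for Serping1 and from -0.28 to 0.67 for Serpinf1.

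Serpinb1a, an inhibitor of neutrophil elastase, had control values of 475 and 440.3 between AMH values of 297.3 and 765.3. The mean change was 0.06 ± 0.36 (adjusted p = 0.92), and each AMH array taken alone gave a call, in opposite directions: 0.72 without AMH replicate 1 (adjusted p = 0.00792) and -0.60 without AMH replicate 2 (adjusted p = 0.0222), with 0.00792 to 0.992 over 14 alternatives. Serpinb6a, an inhibitor of cathepsin G, read 347.3 and 394.3 against 194.5 and 338.9 (-0.50 ± 0.25, adjusted p = 0.182). It passed without AMH replicate 2 (-0.88, adjusted p = 0.00567) and with hybridization control scaling (-0.95, adjusted p = 0.0445), with 0.00567 to 0.628 over 14 alternatives. Its paralog Serpinb6b lay near the filter level on all arrays (33.4 to 40.5) with 0.01 ± 0.25.

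Serpina3n, an acute-phase serpin that inhibits chymotrypsin-like proteases, varied widely between arrays of a group, with 17.1 and 113 in control and 293.3 and 34.2 with AMH. The groups overlapped, and the change of 0.93 ± 0.83 was not called (adjusted p = 0.456). Without AMH replicate 2 it was 2.24 (adjusted p = 0.0197), and without AMH replicate 1 it was -0.38, so that 1 array set its sign (0.0197 to 0.977 over 14 alternatives). Serpini1, neuroserpin, an inhibitor of tissue plasminogen activator, read 55.7 and 69.5 against 37.6 and 50.1 (-0.40 ± 0.24, adjusted p = 0.278).

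The 3 serpin genes with 2 tested probe sets had estimates of opposite sign at them, though none of these 6 estimates was called and that of Serpinb1a at its brighter probe set lay near 0. Over all genes with at least 2 tested probe sets, the 2 brightest had opposite signs in 1305 of 2609. Serpini1 gave 0.39 ± 0.24 at its dimmer probe set (33.1 and 28.2 in control, 43.3 and 47.1 with AMH). Serpinb1a gave -1.07 ± 0.34 at its dimmer one (131.5 and 62 against 46.1 and 26.1, adjusted p = 0.0577). The log2 difference between the brighter and the dimmer probe set of Serpinb9 was 0.80 and 0.52 in control and 2.09 and 1.89 with AMH, a shift of 1.33. For Serpini1 the shift was -0.79 and for Serpinb1a 1.13. An exact permutation test of each shift gave p = 0.333, 0.333 and 0.667 (two-sided, 2 arrays against 2, for which 0.333 is the smallest possible). On the same arrays the GAPDH control probe sets gave -0.32 at the 3′ end and -2.68 at the 5′ end, and those of beta-actin gave -2.36 and -3.82.

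**Figure D4:**
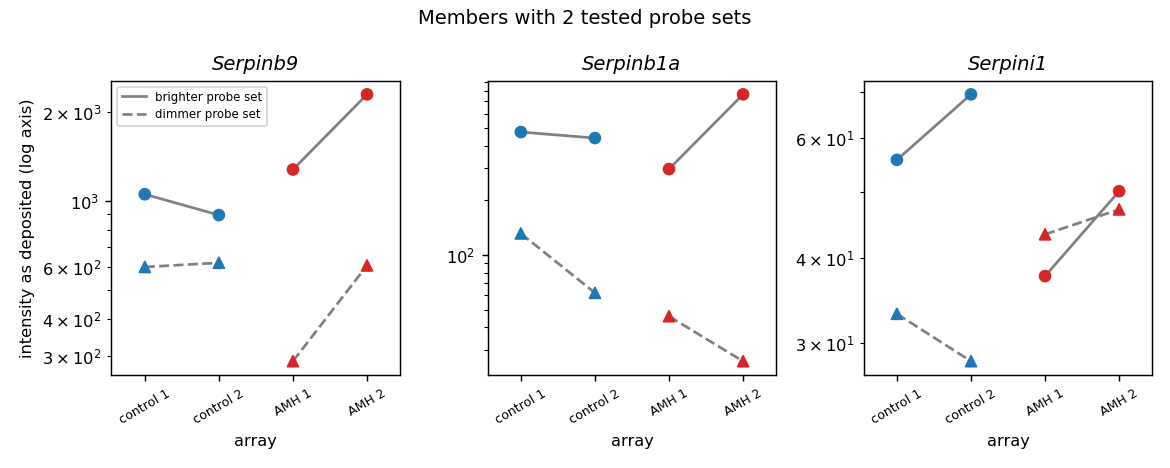
Deposited intensity (log axis) of both tested probe sets of Serpinb9, Serpinb1a and Serpini1 on each array, with circles for the brighter and triangles for the dimmer probe set, blue for control, red for AMH and lines joining the arrays of a group. For Serpinb9 the brighter probe set is above control on both AMH arrays (1276.7 and 2290.1), while the dimmer one reads 287.5 and 605.2 against 598.3 and 618.1.

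Serpin targets and partners, a list of proteases and receptors that also holds coagulation factor VIII, gave 3 higher, 1 lower and 15 not called of 19 tested. That is 21.1% called, close to the 23% of all tested genes. Plat, tissue plasminogen activator, a target of Serpinb2, Serpine2 and Serpini1, rose by 0.57 ± 0.15 (from 777.7 and 722.9 to 1181.2 and 1060.9, adjusted p = 0.0282). Plau, urokinase, read 88.6 and 75.6 against 99.2 and 154 and was not called (0.52 ± 0.24, adjusted p = 0.162). Vldlr, a lipoprotein receptor that clears serpin and protease complexes, rose by 1.12 ± 0.19 (adjusted p = 0.0057), and Htra1, a secreted serine protease, by 0.74 ± 0.15 (adjusted p = 0.0118). F8, coagulation factor VIII, fell by 0.88 ± 0.23 (adjusted p = 0.0293), and its other tested probe set gave -0.34 ± 0.23. Lrp1, the main receptor for such complexes, gave -0.05 ± 0.19. With hybridization control scaling 0 of the 19 were higher and 3 lower, and without control replicate 1 the counts were 1 and 0.

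Inhibitors of other families gave 1 higher, 6 lower and 15 not called of 22 tested, with a median of 0.04. That is 31.8% called, beside 23% of all tested genes. Spint2, a Kunitz-type inhibitor of membrane serine proteases, fell by 1.41 ± 0.17 (785.2 and 680.9 in control, 295 and 239.5 with AMH, adjusted p = 0.00172). Pcsk1n, an inhibitor of a prohormone convertase, fell by 1.43 ± 0.33 to AMH values under the filter level (25.3 and 6.1). It entered the tested set only through its control arrays, so its call is not independent support (limma adjusted p = 0.0494 without the filter). Crim1, a transmembrane protein of the BMP system, fell by 1.27 ± 0.31. Reck, a membrane-anchored inhibitor of matrix metalloproteases, rose by 0.65 ± 0.16 (adjusted p = 0.0227). With hybridization control scaling it was 0.19 (adjusted p = 0.55), and the call was also lost without the intensity trend (adjusted p = 0.0514) and without either control array, where the change was 0.63 or 0.68 (0.00958 to 0.55 over 14 alternatives). Without control replicate 1 the counts were 0 higher and 3 lower. Slpi, a secreted inhibitor of elastase, measured 52.1 and 777.6 in control and 549.6 and 1302.2 with AMH, so that the control arrays alone differed by 3.54 on the log2 scale (1.89 ± 0.93, adjusted p = 0.18).

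Within complement, 1 of 5 tested genes (20%) was called, close to the 23% of all tested genes. C1s, the protease of the C1 complex that cuts C4 and C2, measured 1945.2 and 2201.5 in control and 4806.4 and 3702.7 with AMH. The groups did not overlap. The rise was 1.02 ± 0.16 (2.03-fold, adjusted p = 0.00512), with 0.83 to 1.21 when 1 array was left out and 0.54 with hybridization control scaling, where it was not called (adjusted p = 0.0849, with 0.000121 to 0.0849 over 14 alternatives).

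C1r, the protease that activates C1s and whose gene is the direct neighbour of C1s in the RefSeq annotation, measured 1073.3 and 1441.1 in control and 1909.6 and 1115 with AMH. The AMH arrays enclosed control replicate 2, and the change was not called (0.23 ± 0.25, adjusted p = 0.555). Without AMH replicate 2 it was 0.61 and passed (adjusted p = 0.0245, with 0.0245 to 0.981 over 14 alternatives). The log2 difference between C1s and C1r was 0.85 and 0.61 in control and 1.32 and 1.72 with AMH, a shift of 0.79 that the exact permutation test could not call (p = 0.333, the smallest possible).

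C3, the central component, measured 1833.1 and 1091.6 in control and 815.3 and 1314.1 with AMH. The groups overlapped, and arrays within a group differed by 0.74 in control and 0.68 with AMH on the log2 scale (-0.44 ± 0.28, adjusted p = 0.29). Without AMH replicate 2 it was -0.78 and passed (adjusted p = 0.0381, with 0.0381 to 0.921 over 14 alternatives). Krt19, a keratin of the ovarian surface epithelium, put the arrays in the same order with 2443.6 and 1806.8 in control and 895.9 and 1977 with AMH. Of the 11 surface epithelium and mesothelium markers, a list that holds C3 itself, 1 was higher (Upk1b), 1 lower (Cdh1) and 9 not called. The counts, C3 included, were 1 higher and 4 lower with hybridization control scaling. The median change of the list was -0.44, which is the value of C3 itself. It was -0.66 without AMH replicate 2 and -0.19 without control replicate 1. The sum of these markers without C3 was 4896.8 and 4892 in control and 3210.4 and 5618.7 with AMH. Their part in the values of C3 was not tested.

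Cfi, factor I, which inactivates C3b, measured 70.5 and 65.2 in control and 123.1 and 90 with AMH. Both AMH arrays were higher, and the change missed the threshold (0.53 ± 0.22, adjusted p = 0.123). Without AMH replicate 2 it was 0.73 (adjusted p = 0.0421, with 0.0421 to 0.725 over 14 alternatives). Cfd, factor D or adipsin, which cuts factor B and is made mainly by fat cells, measured 4.1 and 109.5 in control and 34.7 and 25.8 with AMH, so that the control arrays enclosed both AMH arrays (-0.13 ± 0.70, adjusted p = 0.919). Its sign was set by single control arrays, at -1.45 without control replicate 1 (adjusted p = 0.0261) and 1.20 without control replicate 2, with 0.0261 to 0.992 over 13 alternatives. C9, C6 and C5, parts of the membrane attack complex or its start, were too dim to test, between 1.7 and 41.7.

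Among 8 measured adipocyte markers other than Cfd, 6 were higher on control replicate 2 than on control replicate 1. Lipe (103.9 and 84.5) and Lep (9.4 and 2) were lower. How many of all genes have this order was not counted, so the 6 of 8 has no background beside it. The sum of 8 measured adipocyte markers other than Cfd was 362.3 and 1534.9 in control and 856.3 and 1015.9 with AMH. Fabp4, a fatty acid carrier of fat cells, read 50.1 and 783.1 in control and 95.8 and 254.8 with AMH, and it and Lpl, lipoprotein lipase (128 and 468.8 against 489 and 514.2), make up most of the difference in the sum. Adipoq read 17.5 and 79.9 against 46 and 75.5. Of 7 tested adipocyte markers, Cfd included, 0 were called by limma and 0 had an unadjusted p under 0.05, with 2 lower without control replicate 1 and 2 higher without control replicate 2. For the marker sum and for Cfd, control replicate 1 was the lowest and control replicate 2 the highest array, and the part of fat tissue in these values was not tested.

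Leukocyte markers differed between the AMH arrays. The sum of 23 measured macrophage and leukocyte markers was 2772.9 and 2440.7 in control and 1753.1 and 4172.2 with AMH, and 1 of 21 tested was higher (Cd68), 1 lower (C1qb) and 19 not called. Without AMH replicate 1 the counts were 6 higher and 1 lower (median 0.37), and without AMH replicate 2 they were 1 and 7 (median -0.51). Lyz2, lysozyme, read 133 on AMH replicate 1 and 837 on AMH replicate 2, and Ptprc, the leukocyte common antigen, 40.9 and 87.7. AMH replicate 2 was above AMH replicate 1 for 12 of the 20 tested genes (60%), among them 7 of the 10 serpins, compared with 48.8% of all tested genes. It was the highest of the 4 arrays for 6 of the 20 (Stfa2l2, Cst12, Serpinb9, Serping1, Serpinb1a and Serpinf1), or 30%, compared with 28.5% of all tested genes. C1s and C1r were lower on AMH replicate 2 than on AMH replicate 1. The part of leukocytes in these values was not tested.

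**Figure D5:**
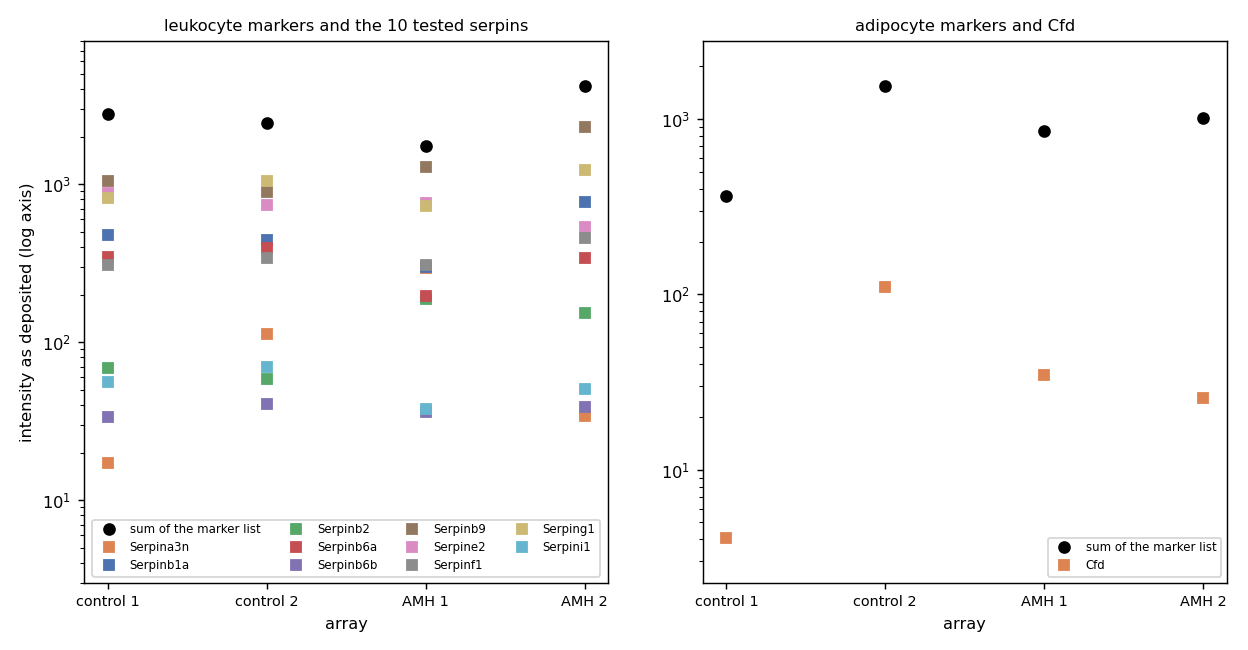
Deposited intensity (log axis) on each array of the summed leukocyte markers (black) with all 10 tested serpins (left), and of the summed adipocyte markers, Cfd not counted, with Cfd (right). The leukocyte sum is highest on AMH replicate 2 (4172.2), as are 4 of the 10 serpins, and the adipocyte sum and Cfd are highest on control replicate 2 (1534.9 and 109.5) and lowest on control replicate 1 (362.3 and 4.1).

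Other complement genes, from recognition proteins to receptors, gave 2 higher, 2 lower and 15 not called of 19 tested. The share called was 21.1%, close to the 23% of all tested genes. Cd93, a receptor of endothelial and myeloid cells, rose by 1.51 ± 0.30 (from 55.3 and 108.1 to 204.2 and 307.9, adjusted p = 0.011), and Colec12, a collectin scavenger receptor, rose by 1.04 ± 0.15 (adjusted p = 0.00319). C1qb, a chain of the C1q recognition molecule made by macrophages, fell by 1.51 ± 0.28 (105.7 and 72.9 to 14.7 and 27.7, adjusted p = 0.00913). Both of its AMH values lay below the filter level, so the size depends on the constant added. C1qb entered the tested set only through its control arrays, so this p is not independent support. With the filter lifted, the adjusted p of C1qb was 0.0275. The partner chains C1qa (-0.51 ± 0.24) and C1qc (-0.52 ± 0.33) were not called. Clu, clusterin, an inhibitor of the membrane attack complex, fell by 0.87 ± 0.15 (772.9 and 785.8 to 413.3 and 425.4, adjusted p = 0.00594). Without control replicate 1 neither fall was called, although Clu was still at -0.88 (adjusted p = 0.0511, with 0.00189 to 0.0511 over 14 alternatives) and C1qb at -1.28 (adjusted p = 0.0677, with 0.00204 to 0.0677 over 13), and the list gave 2 higher and 0 lower. With hybridization control scaling it gave 1 and 3.

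The 33 genes too dim to test comprise 22 serpins, 8 cystatins and 3 complement genes, and their single values ran from 0.4 to 43.5. They include 11 of the 12 clade A serpins, which are mostly liver products of the plasma: Serpina1, the elastase inhibitor alpha-1-antitrypsin, read 14.3 and 18.6 in control and 29 and 24.3 with AMH. Of the 17 measured hepatocyte and plasma protein markers, Serpina1 and Serpinc1 among them, 4 were bright enough to be tested and 13 were not. Alb, one of the dim ones, lay between 1.8 and 18.5 on the same arrays. Without its 2 members the list summed to 364.8 and 521.3 in control and 395.5 and 310.8 with AMH. Serpinc1 (antithrombin), Serpind1 (heparin cofactor II) and Serpinf2 (antiplasmin) were between 1.3 and 12.4. Of the other clade B serpins, Serpinb12 read 22.5 and 27.9 in control and 1.4 and 12.7 with AMH, and Serpinb3, Serpinb7, Serpinb9b, Serpinb10 and Serpinb11 stayed at or below 20.6. With the filter lifted 0 of the 33 were called by limma (lowest adjusted p = 0.117), and 3 had an unadjusted p under 0.05. The remainder were Serpina3c, Serpina3l, Serpina3m, Serpina4, Serpina5, Serpina6, Serpina7, Serpina10, Serpina11, Serpina12, Serpine3 and Serpini2.

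Many of the 53 genes lie side by side in the RefSeq annotation, in families that were measured very unevenly. The block of 11 clade A serpins from Serpina10 to Serpina3n held 1 tested gene, Serpina3n, and 0 calls. The block of 6 clade B serpins from Serpinb12 to Serpinb10 held 1 tested gene, Serpinb2, which rose, while its direct neighbours Serpinb7 (2.6 and 2 in control, 2.8 and 0.8 with AMH) and Serpinb10 (1.3 and 13.1, 19.8 and 6.9) stayed under the filter level. In the other clade B block, from Serpinb6a to Serpinb1a, 4 of 5 genes were tested and 0 called. The block of 6 cystatin genes from Cst11 to Cst3 held 2 tested genes, of which Cst3 fell.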

How the data were processed

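Per the labels' protocols, biotin-labelled RNA of pooled cultured ovaries was hybridised to 1-colour Affymetrix arrays. The authors deposited linear probe set intensity values, 31099 probe sets on 4 arrays. The sources used here do not give the summarising software. The trimmed mean (2 percent off either end) was 125.03 on every array, so the values had been scaled per array.

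Intensities were used as log2(intensity + 16), which understates changes of dim probe sets. After removal of 57 Affymetrix control probe sets and of the dimmest 40 percent by mean (below 27.8), 18625 remained. AMH was compared with control with limma 3.58.1 in R 4.3.3 (lmFit, eBayes with intensity trend, two-sided, Benjamini-Hochberg adjustment, threshold 0.05), with 2 residual and 6.33 prior degrees of freedom. With 2 pools per group p-values rest on this pooled model, and the number of arrays limits the precision.

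Genes were named by the platform annotation (20832 probe sets with 1 symbol, 436 with several, 9831 with none listed); all 53 genes matched a RefSeq gene of the same symbol. Whether a probe set binds paralogs was not tested.

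The genes and lists were chosen with earlier results of these data known. Any of the 53 genes may be named, with all array values where called, among the 5 brightest, among the 3 largest uncalled changes, or one of Serpine2, Serpinf1, Serping1, Cst3, Cstb, C3, C1s, C1r and A2m; of related lists at most 3 rises and 3 falls. Ctsk, Ctsb, Plau, Lrp1, Slpi, C1qa, C1qc and single markers were named after their values were seen. Marker lists covered leukocytes, granulocytes, hepatocytes, adipocytes, granulosa cells, oocytes, surface epithelium, endothelium (of 10 tested markers limma called 0, and 0 had an unadjusted p under 0.05) and stroma (1 higher and 4 lower of 11). Of the hepatocyte markers 1 of 4 tested was lower, and of the oocyte markers 5 of 8 were. Alternatives are given in the closing section.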

Additional observations from a re-analysis of the deposited data

How the results depend on the processing

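The 20 genes were refitted under 14 alternatives: 4 or 64 added, no filter, the lowest 60 percent left out, quantile normalization, median centring, hybridization control scaling, no intensity trend, the mean over probe sets, each array left out, and a replicate block. Of 275 single-gene values, 260 kept their side of the threshold and their direction where called, 11 passed newly, 3 were lost (Cst3, A2m and C1s) and 1 was called in the other direction. The counts of 4 higher and 2 lower became 2 and 4 with hybridization control scaling (median change -0.30), and ran from 4 to 7 higher and 2 to 5 lower when 1 array was left out. The change of Serpinb1a then ran from -0.60 to 0.72. In such fits the residual spread comes from the group that keeps both arrays, so calls gained without an AMH array rest on the control spread. With AMH replicate 1 or AMH replicate 2 left out, more genes of the whole array were called too. With the replicate block the counts were 4 and 2; arrays with the same number did not deviate together (correlation -0.00082), and the numbers come with no stated pairing.

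Over all genes the count of 1175 higher and 1269 lower was 751 and 979 without the filter, 679 and 1050 without the trend, 769 and 1249 with the mean over probe sets, 1425 and 960 with median centring, 94 and 2599 with hybridization control scaling, 236 and 556 without control replicate 1 and 419 and 687 without control replicate 2. No detection calls are used here, so values near the floor have no stated limit.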
